A study of Rattus norvegicus with 16 samples.

Results

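The natriuretic peptide system was described here through 7 genes, taken by symbol from the 32754 gene entries of each deposited count table. They were the peptide genes Nppa, Nppb and Nppc, the receptor genes Npr1, Npr2 and Npr3, and Corin. All 7 were listed, and 6 had enough counts to be tested, Nppc being the exception. Right ventricles of female Sprague Dawley rats aged 20 to 21 weeks were profiled by stranded mRNA sequencing from 10 mg of tissue. ERalpha -/- rats (KO) and wild-type rats (WT) underwent either pulmonary artery banding (PAB), which narrows the artery and loads the ventricle with pressure, for 10 weeks or sham surgery (SHAM). The groups KO PAB, KO SHAM, WT PAB and WT SHAM held 4 libraries each, with total counts of 22168110 to 34718633. The labels name no promoter or cell type for the receptor loss and do not say that replicates were separate animals. The p-values therefore measure the spread between these samples, which may be technical.

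Cardiac muscle cells release atrial natriuretic peptide (ANP, from Nppa) and B-type natriuretic peptide (BNP, from Nppb) when the wall is stretched, and both hormones promote salt excretion and vessel relaxation. ANP and BNP act through the receptor guanylyl cyclase encoded by Npr1, and the C-type peptide (from Nppc) acts through the one encoded by Npr2. Npr3 encodes the clearance receptor, which lacks the cyclase and removes the peptides, and Corin encodes the cell-surface protease that cuts pro-ANP. In the adult heart Nppa is mainly an atrial gene, and the ventricle is known to express it again under load.

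3 of the 6 tested genes rose with PAB averaged over the genotypes, namely Nppa, Nppb and Npr3, and none fell. Of all 13458 tested genes, 3.24% rose in that comparison and 5.09% passed the test in either direction. The test was edgeR's quasi-likelihood test over all 16 libraries, with Benjamini-Hochberg adjustment over all genes tested and a threshold of 0.05. Within KO, 2 of the 6 rose, Nppa and Npr3, where 0.513% of all tested genes rose and 0.632% (85 genes) passed in either direction. That count depended on single libraries: it was 0 without KO SHAM 1 or 2 or KO PAB 2 or 4, 1 on omitting KO SHAM 3, 33 on omitting KO PAB 3, and 275 on omitting WT PAB 1. DESeq2 called 509 genes. Within WT none of the 6 passed, and 0.00743% of tested genes did, which is the single gene Dusp15. No member passed between KO and WT in PAB or in SHAM, where 0.00743% of genes passed, in each case Esr1 alone. The difference between the banding effects in KO and WT passed for 0% of genes, and 237 genes had an unadjusted p below 0.05; DESeq2 and limma-voom also called 0 genes. Nppa in PAB was the one member with an unadjusted p below 0.05 between KO and WT.

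Esr1, the gene of the receptor that was removed, averaged 0.371 ± 0.102 CPM in KO PAB against 3.80 ± 1.00 CPM in WT PAB, and 0.541 ± 0.0780 CPM in KO SHAM against 4.31 ± 0.824 CPM in WT SHAM (SD, n = 4 each). CPM are counts scaled to a common library total, adjusted by TMM. Sham libraries WT SHAM 2, WT SHAM 3 and KO SHAM 4 stood apart. Adipoq, an adipocyte hormone gene, was at 11.1 to 45.6 CPM in them and at most 0.0461 CPM in the other 5 sham libraries. Among PAB libraries Adipoq was at 5.21 CPM in KO PAB 3 and at most 0.355 CPM in any other. The mesothelial gene Msln was at 20.5 to 43.9 CPM in the 3 sham libraries and at 0.164 to 7.90 CPM in the other 5. The ventricular light chain gene Myl3 had 2510 to 3480 CPM in these 3 and 4500 to 4720 CPM in the other 5. Without these 3 libraries, 2 members rose with PAB averaged over genotypes, Nppa (5.70, adjusted p = 0.0178, edgeR) and Npr3 (1.44, adjusted p = 0.0223), where 951 of 13583 genes passed. Nppa and Npr3 also rose in KO without them, where 344 genes (2.53%) passed, and in WT neither a member nor any other gene passed.

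**Figure D1:**
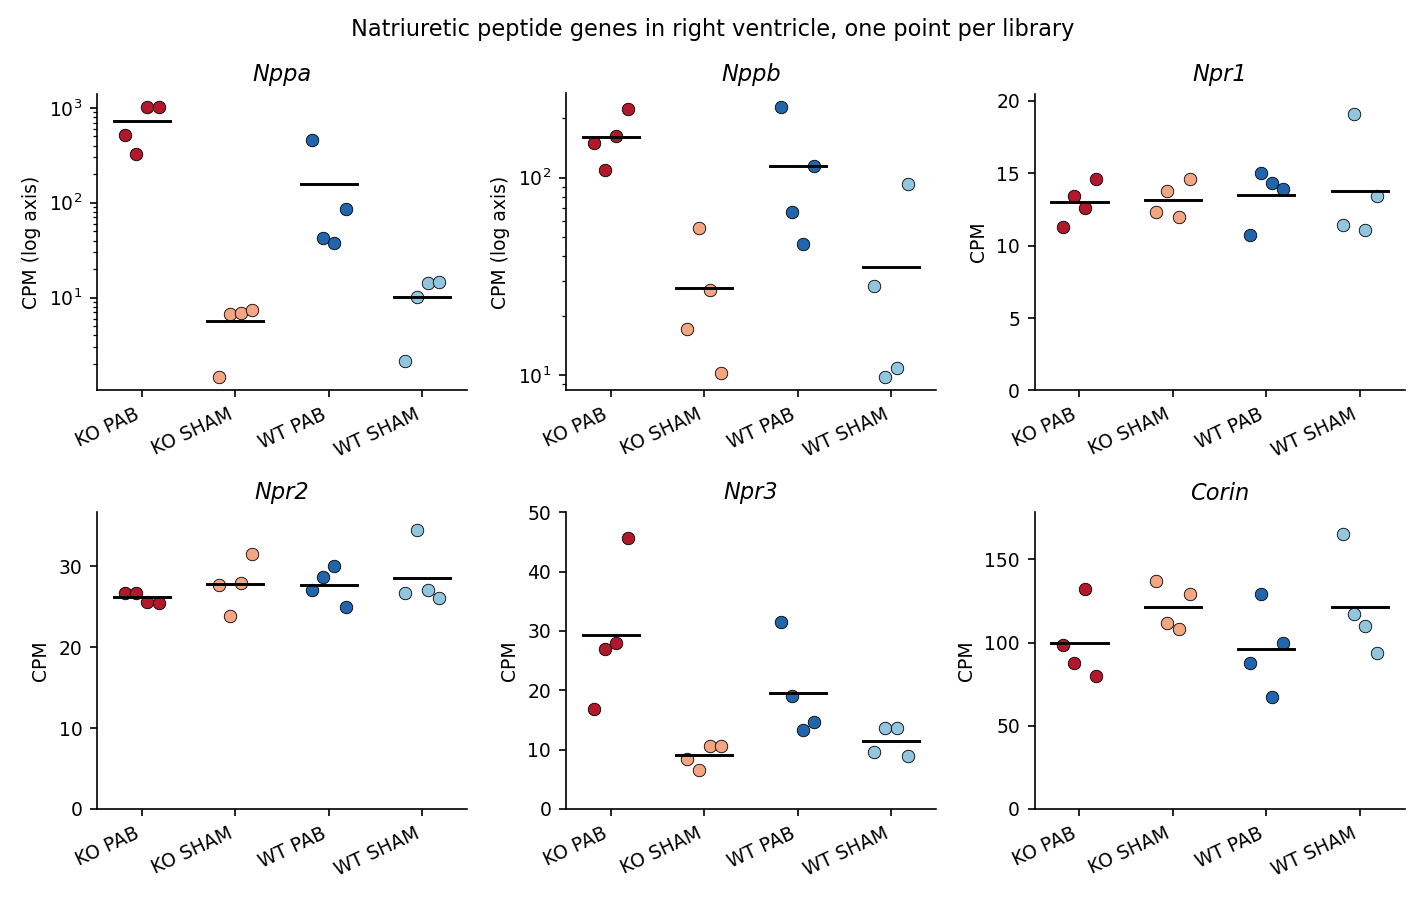
Level of each of the 6 tested genes in CPM, with 1 point per library and a bar at the group mean, for KO PAB, KO SHAM, WT PAB and WT SHAM (4 libraries each). Nppa and Nppb are on log axes; Nppa in the 8 PAB libraries lies above every SHAM library, and Npr1, Npr2 and Corin overlap between PAB and SHAM.

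Nppa was the gene of the system with the largest response to banding. It had 520, 326, 1017 and 1010 CPM in KO PAB libraries 1 to 4, against 1.46, 6.75, 6.97 and 7.41 CPM in KO SHAM libraries 1 to 4. In WT PAB it had 462, 42.3, 38.0 and 85.0 CPM, against 2.17, 10.1, 14.2 and 14.6 CPM in WT SHAM. Every PAB library was above every SHAM library, whatever the genotype, and 1.22% of tested genes were likewise higher without overlap in both genotypes. WT PAB 1 alone among the WT PAB libraries reached the KO PAB range.

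Nppa rose with PAB averaged over genotypes by 5.46 on the log2 scale (SE 0.66, adjusted p = 0.00176, edgeR), a 44.0-fold difference and the third largest increase of all tested genes. In KO the log2 change was 6.99 (SE 1.01, adjusted p = 0.022). In WT it was 3.93 (SE 0.87), which missed the threshold with edgeR (adjusted p = 0.197) and passed with DESeq2 (adjusted p = 0.000918), although the WT groups did not overlap; DESeq2 called 108 genes in WT. Among all tested genes, 2.60% were higher without overlap in WT and 5.86% in KO. The KO call was lost without KO SHAM 1, 2 or 3 or KO PAB 2 or 4, with adjusted p of 0.0567 to 0.0927 and log2 fold changes of 6.67 to 7.24.

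The order of the mean Nppa levels was KO PAB (718 ± 350 CPM), WT PAB (157 ± 204 CPM), WT SHAM (10.3 ± 5.77 CPM) and KO SHAM (5.65 ± 2.81 CPM; SD, n = 4 each). KO PAB and WT PAB are neighbours in that order whose libraries overlap, and so are WT SHAM and KO SHAM. KO against WT in PAB gave a log2 change of 2.20 (SE 0.80, unadjusted p = 0.0159, adjusted p = 0.999), with a 95% interval of 0.45 to 3.95. Without WT PAB 1 it was 3.70 (adjusted p = 0.136). KO against WT in SHAM gave -0.87 (SE 0.82, adjusted p = 0.996). The banding effect in KO exceeded that in WT by 3.07 on the log2 scale (SE 1.14, unadjusted p = 0.0175, adjusted p = 0.999), and by 4.58 without WT PAB 1 (adjusted p = 0.658).

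Nppb, the neighbour of Nppa in the genome, had a smaller response and more overlap. It had 150, 109, 162 and 223 CPM in KO PAB 1 to 4, against 17.1, 55.6, 26.9 and 10.3 CPM in KO SHAM 1 to 4. In WT PAB it had 228, 67.3, 45.9 and 115 CPM, against 28.1, 9.78, 10.9 and 92.4 CPM in WT SHAM. The KO groups did not overlap. The WT groups did, because WT SHAM 4 was above WT PAB 2 and WT PAB 3.

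Nppb rose with PAB averaged over genotypes by 2.13 on the log2 scale (SE 0.52, adjusted p = 0.0312, edgeR). In KO the value was 2.55 (SE 0.74, adjusted p = 0.122), which passed with DESeq2 (2.56, adjusted p = 0.0186) and with an adipocyte and mesothelial covariate (2.08, adjusted p = 0.0399), and in WT 1.70 (SE 0.72, adjusted p = 0.400). The averaged call was lost in 11 of 25 alternative settings, always with a positive value; without the 3 sham libraries it was 1.60 (adjusted p = 0.0698). Among these 11 settings were the fits leaving out WT SHAM 1, 2 or 3, WT PAB 1, KO SHAM 1 or 3, or KO PAB 4. Their adjusted p was 0.0507 to 0.0738 (edgeR). The 3 sham libraries rich in adipocyte and mesothelial transcripts held the 3 lowest Nppb levels, 9.78 to 10.9 CPM, against 17.1 to 92.4 CPM in the other 5. Nppa had 7.41 to 14.2 CPM in those 3 and 1.46 to 14.6 CPM in the other 5, so the Nppa ranges overlapped there. The part of these markers in the Nppb levels was not tested.

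Mean Nppb levels followed the order KO PAB (161 ± 47.4 CPM), WT PAB (114 ± 81.4 CPM), WT SHAM (35.3 ± 39.0 CPM) and KO SHAM (27.5 ± 20.0 CPM; SD, n = 4 each). Neighbours in this order overlapped in every case. KO against WT gave a Nppb log2 fold change of 0.50 in PAB (95% interval -1.03 to 2.02, adjusted p = 0.999) and -0.36 in SHAM (95% interval -1.91 to 1.18, adjusted p = 0.996). The interaction was 0.86 (SE 1.00, adjusted p = 0.999), and its sign depended on WT SHAM 4, without which it was -0.27.

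The number of Nppa counts per Nppb count set KO PAB apart as a description. It was 3.47, 3.00, 6.28 and 4.52 in KO PAB 1 to 4, against 0.0855, 0.121, 0.259 and 0.720 in KO SHAM. In WT PAB it was 2.02, 0.628, 0.828 and 0.738, against 0.0772, 1.03, 1.3 and 0.158 in WT SHAM. All 4 KO PAB ratios lay above all 4 WT PAB ratios, while WT PAB and WT SHAM overlapped. The ratio was formed after the levels of both genes had been seen and is given with no test. Among sham libraries, the 3 highest ratios (0.720, 1.03 and 1.3) were those of the 3 libraries rich in adipocyte and mesothelial transcripts.

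**Figure D2:**
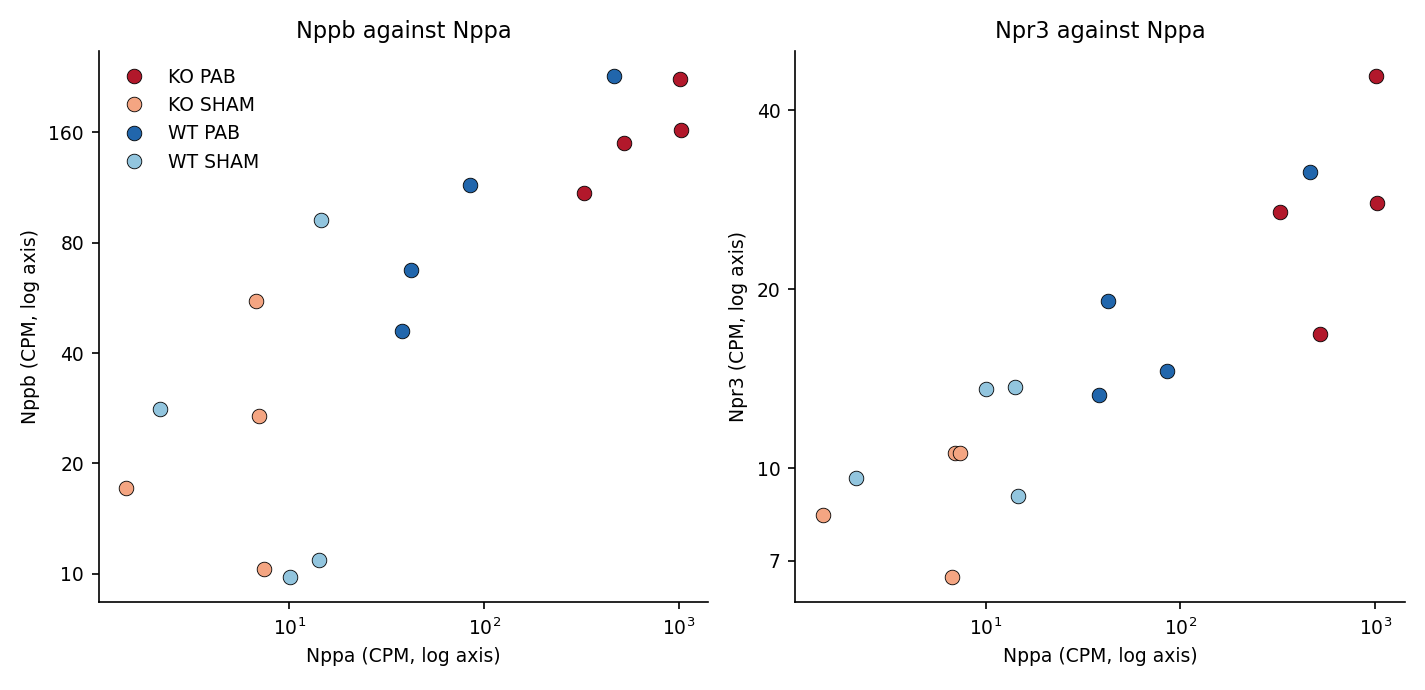
Nppb (left) and Npr3 (right) against Nppa, all in CPM on log axes, with 1 point per library coloured by group (KO PAB, KO SHAM, WT PAB and WT SHAM, 4 each). WT PAB 1, at 462 CPM of Nppa, lies among the KO PAB libraries in both panels.

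The promoters of Nppa and Nppb are shown because both genes rose together. Sequences are RefSeq's for GRCr8, from 250 bases before the start site to 49 after it, counting the start as position 0. The count tables were made on Rnor_6.0, so these coordinates belong to the sequence table only. Capitals mark the motifs searched on both strands: GATAA (the GATA box, bound by GATA factors), AAGTG (the NKX2-5 core), CATTCC (the MCAT element bound by TEAD factors) and TATAAA (the TATA box). A reverse-strand match appears as its complement. The Nppa window is chr5:163711934-163712233 on the plus strand, and the Nppb window is chr5:163699758-163700057 on the plus strand.
Nppa: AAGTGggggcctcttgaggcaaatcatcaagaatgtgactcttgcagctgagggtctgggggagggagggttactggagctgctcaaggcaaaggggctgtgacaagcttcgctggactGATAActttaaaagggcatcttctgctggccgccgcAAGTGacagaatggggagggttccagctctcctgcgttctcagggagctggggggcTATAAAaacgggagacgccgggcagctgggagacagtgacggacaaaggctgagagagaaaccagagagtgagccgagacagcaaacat
Nppb: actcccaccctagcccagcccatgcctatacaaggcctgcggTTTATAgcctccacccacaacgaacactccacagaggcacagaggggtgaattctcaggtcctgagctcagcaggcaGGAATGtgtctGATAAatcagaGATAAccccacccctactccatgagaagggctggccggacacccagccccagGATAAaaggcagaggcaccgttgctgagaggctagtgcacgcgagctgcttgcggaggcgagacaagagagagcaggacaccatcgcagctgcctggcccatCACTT

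The Nppa window held 1 GATA box, 131 to 127 bases before the start, 2 NKX2-5 cores and a TATA box 39 to 34 bases before it. The Nppb window held 3 GATA boxes, at 120 to 116, 109 to 105 and 57 to 53 bases before the start, with a reverse-strand MCAT element at 131 to 126. It also held a reverse-strand TATA box and a reverse-strand NKX2-5 core, and no marked motif overlapped another. Of 33469 promoter windows of this length, 26.5% held the GATA box, 46.2% the NKX2-5 core, 14.2% the MCAT element and 14.2% the TATA box. TGANTCA (AP-1; 7.33% of windows), the CArG box bound by serum response factor (1.64%) and the palindromic estrogen response element (0.0269%) matched neither window. Npr3, for which a window was also searched, held a reverse-strand NKX2-5 core alone. Windows were found for 6 of the 7 genes, Npr2 being the exception. A match is a string of letters, not a measured binding site.

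Npr3, the clearance receptor gene, rose with banding to a lesser degree than Nppa. It had 16.8, 27, 27.9 and 45.7 CPM in KO PAB 1 to 4, against 8.34, 6.56, 10.6 and 10.6 CPM in KO SHAM 1 to 4. In WT PAB 1 to 4 it had 31.5, 19.1, 13.3 and 14.6 CPM, against 9.63, 13.6, 13.7 and 9.00 CPM in WT SHAM 1 to 4. The KO groups did not overlap. In WT the overlap came from WT PAB 3, which was just under WT SHAM 2 and WT SHAM 3.

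Npr3 rose with PAB averaged over genotypes by 1.24 on the log2 scale (SE 0.22, adjusted p = 0.00785, edgeR), and the call held in 24 of 25 alternative settings, the exception being a minimum fold of 1.5. It rose in KO by 1.70 (SE 0.31, adjusted p = 0.0317), a call lost without KO SHAM 1, 2 or 3 or KO PAB 2, 3 or 4, with adjusted p of 0.0618 to 0.12. In WT the log2 change was 0.77 (SE 0.31, adjusted p = 0.380). The interaction was 0.93 (SE 0.43, unadjusted p = 0.0498, adjusted p = 0.999). Mean levels were 29.3 ± 12.0 CPM in KO PAB, 19.6 ± 8.29 CPM in WT PAB, 11.5 ± 2.5 CPM in WT SHAM and 9.02 ± 1.95 CPM in KO SHAM (SD, n = 4 each). KO PAB overlapped WT PAB, and WT SHAM overlapped KO SHAM.

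Npr3 is also expressed by endocardial cells, the inner lining of the heart. None of 6 endocardial marker genes passed the test, and their summed level was 25.5 to 66.7 CPM in KO PAB, 39.1 to 153 CPM in KO SHAM, 28.8 to 55.9 CPM in WT PAB and 32.8 to 165 CPM in WT SHAM. All 6 were detected, and the sum was mostly Cytl1, at 125 CPM in WT SHAM 2 and 122 CPM in KO SHAM 4, both among the sham libraries that stood apart. The mean z-score of the 6 genes weights them equally. It was -0.65, -0.11, 0.23 and 0.73 in KO PAB 1 to 4, the same order as their Npr3 levels, against -0.92, -0.77, -0.38 and 1.4 in KO SHAM. In WT it was 0.00, 0.24, -0.60 and -0.16 in WT PAB, against -0.55, 1.89, 0.28 and -0.61 in WT SHAM. In the other groups the order of the z-score differed from that of Npr3 only by an exchange of neighbouring libraries. These were KO SHAM 1 and KO SHAM 2, WT PAB 1 and WT PAB 2, and WT SHAM 2 and WT SHAM 3. The part of endocardial cells in the Npr3 levels was not tested. In bulk tissue, a change in the number of cells of a type and a change in RNA per cell cannot be told apart.

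The signalling receptor genes Npr1 and Npr2 passed the test in none of the comparisons. Npr1 averaged 13.0 ± 1.37 CPM in KO PAB and 13.2 ± 1.21 CPM in KO SHAM, and 13.5 ± 1.90 CPM in WT PAB and 13.8 ± 3.73 CPM in WT SHAM (SD, n = 4 each). Its averaged log2 fold change with PAB was -0.03, with a 95% interval of -0.27 to 0.22. Npr2 averaged 26.1 ± 0.686 CPM in KO PAB and 27.7 ± 3.17 CPM in KO SHAM, and 27.7 ± 2.19 CPM in WT PAB and 28.6 ± 3.92 CPM in WT SHAM. Its averaged log2 fold change was -0.06, with a 95% interval of -0.22 to 0.09. The 95% intervals thus held no averaged change in Npr1 or Npr2 as large as that of Npr3, whose interval was 0.76 to 1.71.

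Corin averaged 99.6 ± 22.9 CPM in KO PAB and 121 ± 13.7 CPM in KO SHAM, and 96.0 ± 26.2 CPM in WT PAB and 121 ± 30.6 CPM in WT SHAM (SD, n = 4 each). Its averaged log2 change with PAB was -0.31 (SE 0.15, unadjusted p = 0.0513, adjusted p = 0.222, edgeR), and it was negative in every alternative setting (-0.40 to -0.22). KO against WT gave 0.05 for Corin in PAB, with a 95% interval of -0.40 to 0.51.

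Nppc, the C-type peptide gene, was near the limit of detection. It had 4 counts in KO PAB and 3 in KO SHAM, and 7 in WT PAB and 7 in WT SHAM, each summed over 4 libraries. No library had more than 4 counts and 6 had none. A library with 0 counts allows a level of up to 3 counts, which is 0.11 to 0.127 CPM in those 6 libraries, for counting error only. No change in Nppc was detectable at this depth.

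**Figure D3:**
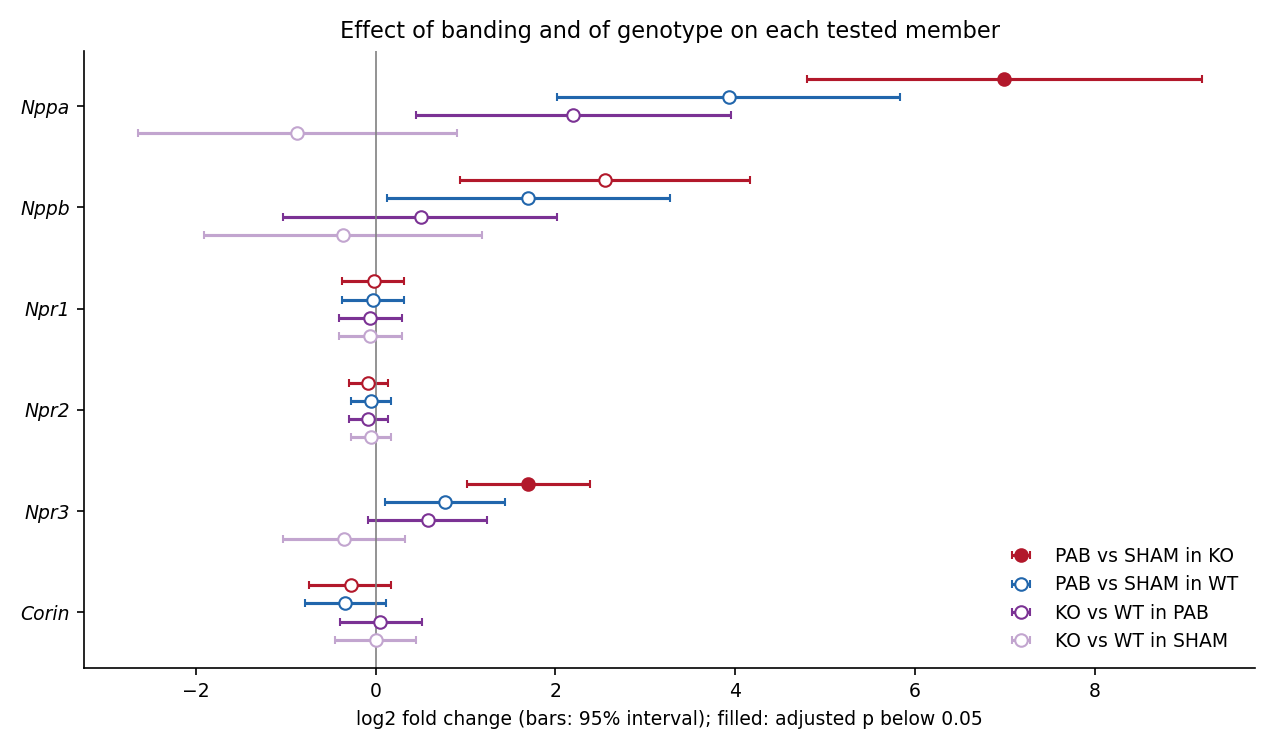
Log2 fold change of each tested gene for PAB over SHAM in KO and in WT, and for KO over WT in PAB and in SHAM, with 95% intervals from the edgeR fit over 16 libraries. Filled points passed the adjusted threshold of 0.05: Nppa (6.99) and Npr3 (1.70) for PAB over SHAM in KO.

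The members differed widely in how much they varied between libraries of 1 group. The pooled within-group SD of log2(CPM + 1) was 1.15 for Nppa and 1.03 for Nppb, above that of 99.4% and 99.0% of tested genes. It was 0.44 for Npr3, 0.31 for Corin, 0.22 for Npr1 and 0.13 for Npr2, where the median of all tested genes was 0.19. Transcript lengths were not used here, so levels were not compared between genes.

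Over the 8 PAB libraries, Nppa and Nppb varied together. Pearson's r of log2(CPM + 1) was 0.886 (exact permutation p = 0.0032, adjusted over 5 pairs p = 0.016) and Spearman's rank coefficient 0.81 (exact permutation p = 0.0218, adjusted p = 0.109). Without WT PAB 2 and WT PAB 3, the libraries farthest from the median of Nppa, r was 0.655, and leaving out WT PAB 2, WT PAB 3 or KO PAB 4 alone moved the adjusted p to 0.0536 to 0.0942. For Nppa with Npr3, r was 0.764 (exact permutation p = 0.0355, adjusted p = 0.0887) and Spearman's coefficient 0.714 (adjusted p = 0.144). It was 0.724 without the same 2 libraries. For Nppa with Npr1, Npr2 and Corin, r was -0.52, -0.646 and 0.107, with adjusted exact permutation p of 0.234, 0.146 and 0.801. Leaving out 1 library also brought pairs past the threshold: Nppa with Npr2 without WT PAB 4 (r = -0.964, adjusted exact permutation p = 0.00992) and Nppa with Npr3 without KO PAB 1 (r = 0.889, adjusted exact permutation p = 0.0288). Spearman's coefficient was -0.452, -0.595 and 0.238 for the same pairs (adjusted p of 0.334, 0.22 and 0.582), and r without the 2 libraries was -0.154, 0.256 and 0.096. The tests were two-sided, and KO and WT, with 4 PAB libraries each, were too few to be taken apart.

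The genes most like each member were taken by Pearson's r of log2(CPM + 1) over all 16 libraries, among 10871 genes, as a description with no p. Nppa was most like Tceal7 (r = 0.958), Ikbkb (0.944) and Akip1 (0.944), and Npr3 most like Tgfb2 (0.962), Akip1 (0.957) and Abca5 (0.949). Nppb was most like Inpp5a (0.936), Ccnd2 (0.918) and Psmd8 (0.917). Akip1 was thus among the 3 nearest genes of both Nppa and Npr3, and Nppa and Npr3 themselves had r = 0.892. All 16 libraries share the difference between PAB and SHAM, and 200 genes had r above 0.8 with Nppa. For Npr1 the nearest genes were Tor4a (0.895), Samd9l (0.891) and Nynrin (0.88), for Npr2 Add1 (0.869), Actb (0.861) and Hdac4 (0.854), and for Corin Dcdc5 (0.832), Cnst (0.828) and Ctsh (0.821). Over the 8 PAB libraries alone, r with Npr2 was 0.333 for Add1, 0.658 for Actb and 0.757 for Hdac4. The highest Npr2 levels were in sham libraries that stood apart, WT SHAM 2 (34.4 CPM) and KO SHAM 4 (31.5 CPM).

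Because Nppa is an atrial gene, atrial markers were read beside it. Of 9 atrial marker genes found, 8 were tested and 1 rose with PAB averaged over genotypes. That gene, Mybphl, had a log2 change of 1.44 (adjusted p = 0.0244, edgeR) and at most 0.692 CPM in any library. The summed level of the 9 was 155 to 212 CPM in KO PAB and 170 to 246 CPM in KO SHAM, and 149 to 216 CPM in WT PAB and 152 to 354 CPM in WT SHAM, most of it Dkk3, whose averaged log2 change was -0.48 (adjusted p = 0.0933). The median log2 change of the 8 tested genes was 0.37 averaged and 0.52 in KO, against -0.02 for all tested genes in both. Their mean z-score was 0.09 to 0.82 in KO PAB and -0.73 to 0.22 in KO SHAM, and -0.17 to 0.29 in WT PAB and -0.43 to 0.29 in WT SHAM. Sln, the atrial sarcolipin gene, was at 0.904 to 2.32 CPM (24 to 61 counts) in KO PAB and 0 to 0.543 CPM (0 to 17 counts) in WT PAB. It had 0 to 1.84 CPM in KO SHAM and 0 to 0.681 CPM in WT SHAM. Mean CPM in KO PAB against WT PAB was also higher for Myl4 (6.72 against 3.02), Fgf12 (21.7 against 16) and Mybphl (0.515 against 0.398). It was lower for Myl7 (3.8 against 6.62), Kcna5 (1.64 against 2.26), Nr2f2 (2.32 against 2.74) and Dkk3 (135 against 140). No atrial marker passed between KO and WT in PAB (median log2 change 0.16). Bmp10, an atrial hormone gene, had at most 1 count in any library and a count in 3 libraries. The atrial light chain gene Myl7 was at 0.953 CPM in KO PAB 3, which had the highest Nppa level, and at its own highest, 14.1 CPM, in WT PAB 2, where Nppa was at 42.3 CPM. Myl4, the other atrial light chain gene, was at 17.4 CPM in KO PAB 3 and at most 3.97 CPM in every other library. Without KO PAB 3, the Nppa log2 change in KO was 6.78 (adjusted p = 0.0432, edgeR). KO PAB 4 had Nppa at 1010 CPM and Myl7 at 9.96 CPM, and without it the change was 6.78 (adjusted p = 0.081, edgeR), which missed the threshold. The part of atrial tissue in the Nppa levels was not tested. The ventricular genes Myl3 and Tnnt2 averaged 3840 to 4600 CPM and 4350 to 4980 CPM over the groups. Of 7 ventricular marker genes, 1 (Hey2) fell with PAB averaged over genotypes and none rose. The mean z-score of the 7 was 0.49, 0.49, -0.56 and -0.21 in KO PAB 1 to 4, against -0.7 to 0.34 in KO SHAM. In WT it was -0.02 to 0.62 in PAB and -1.39 to 0.57 in SHAM.

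**Figure D4:**
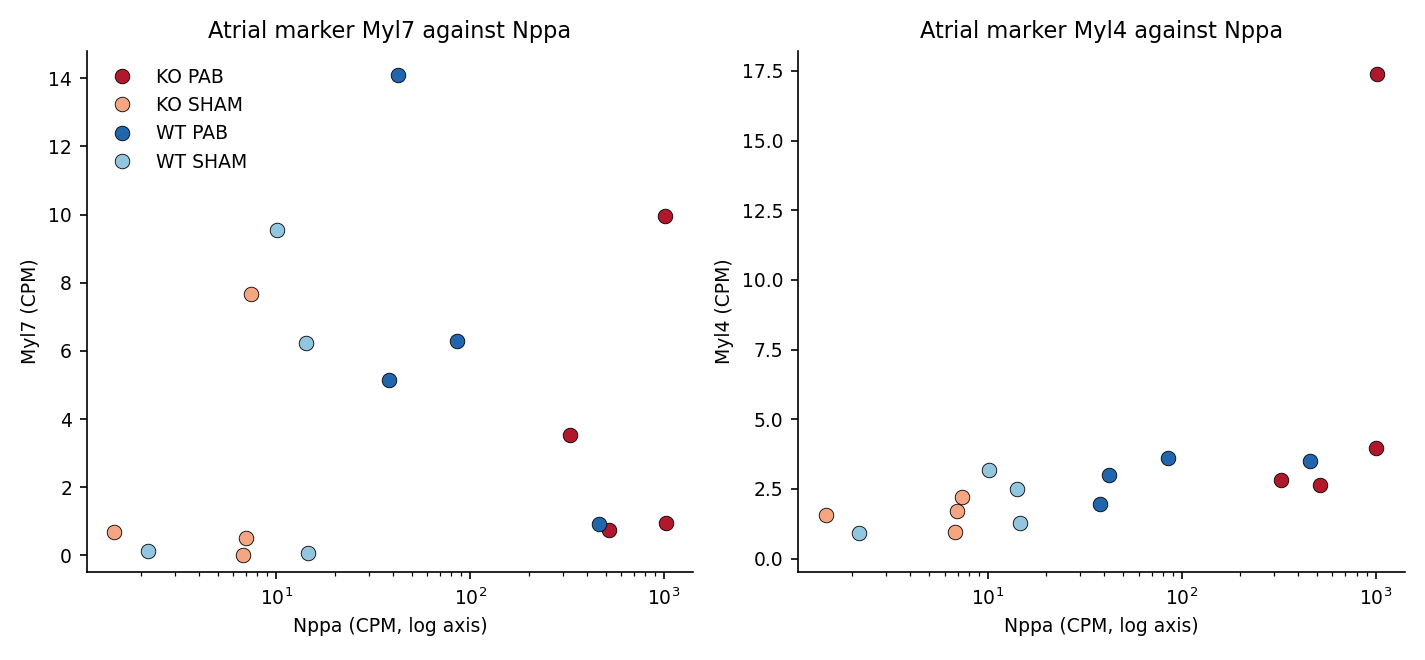
Atrial light chain genes Myl7 (left) and Myl4 (right) in CPM against Nppa in CPM on a log axis, with 1 point per library coloured by group (KO PAB, KO SHAM, WT PAB and WT SHAM, 4 each). The highest Myl7 level (14.1 CPM) is in WT PAB 2, and the highest Myl4 level (17.4 CPM) is in KO PAB 3, which also has the highest Nppa level.

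The enzymes that make or break down natriuretic peptides showed 1 rise and 1 fall among 6 tested genes with PAB averaged over genotypes. Mme, which encodes the peptide-degrading protease neprilysin, averaged 0.464 ± 0.139 CPM in KO PAB against 1.45 ± 0.216 CPM in KO SHAM, and 0.753 ± 0.399 CPM in WT PAB against 1.59 ± 0.813 CPM in WT SHAM (SD, n = 4 each). Its averaged log2 change was -1.36 (SE 0.30, adjusted p = 0.0171, edgeR). Ide, the gene of the insulin-degrading enzyme, which also cleaves ANP, had an averaged log2 change of 0.32 (SE 0.08, adjusted p = 0.0265). Without the 3 sham libraries neither passed, with values of -1.01 for Mme (adjusted p = 0.0651) and 0.25 for Ide (adjusted p = 0.0631). The median of the list was 0.00, against -0.02 for all tested genes. Furin, a protease gene of pro-BNP processing, was at 62.7 ± 7.30 CPM in KO PAB and 55.3 ± 3.21 CPM in KO SHAM, and at 59.6 ± 3.12 CPM in WT PAB and 60.7 ± 9.95 CPM in WT SHAM, and did not pass.

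Genes of cyclic GMP signalling did not pass in any comparison (18 tested, 6 with an unadjusted p below 0.05 in the averaged comparison). Their median log2 fold change was -0.36 with all libraries and -0.03 (19 tested) without the 3 sham libraries, against -0.02 and 0.01 for all tested genes. The 4 with the smallest p were Gucy1a3, a subunit of soluble guanylyl cyclase (-0.97, adjusted p = 0.0703), Rgs2, a regulator of G protein signalling (-0.84, adjusted p = 0.0722), the potassium channel gene Kcnma1 (-3.09, adjusted p = 0.0761) and Mrvi1, a substrate of cyclic GMP-dependent kinase (-1.27, adjusted p = 0.0971). Without the 3 sham libraries Kcnma1 stood at 0.04 and Mrvi1 at -0.09. Those libraries were also rich in the smooth muscle gene Myh11. It was at 1030 CPM in WT SHAM 2, 291 CPM in WT SHAM 3 and 503 CPM in KO SHAM 4, and at most 107 CPM in any other sham library. Of 7 smooth muscle and pericyte marker genes, 3 fell with PAB averaged over genotypes and none rose, where 5.09% of all tested genes passed in either direction. The part of smooth muscle in the levels of these genes was not tested.

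Of 23 tested genes for transcriptional regulators of Nppa and Nppb, 3 rose and 2 fell with PAB averaged over genotypes, and the list's median was 0.04. Gata4, a GATA factor gene of cardiac muscle, averaged 114 ± 8.70 CPM in KO PAB against 88.8 ± 4.80 CPM in KO SHAM. In WT it averaged 116 ± 14.8 CPM in PAB against 91.7 ± 5.32 CPM in SHAM (SD, n = 4 each). Its log2 change was 0.35 (SE 0.07, adjusted p = 0.00894, edgeR), with no overlap in either genotype. Tead1, a factor that binds the MCAT element, rose by 0.55 (SE 0.12, adjusted p = 0.0152), and Myocd, the coactivator of serum response factor, by 0.47 (SE 0.10, adjusted p = 0.0167). Mef2a, a muscle transcription factor gene, fell by 0.25 (adjusted p = 0.0342), and Hey2, a ventricular repressor gene, fell by 0.59 (adjusted p = 0.0418). Without the 3 sham libraries 4 rose and 2 fell, and Hey2 was then at -0.38 (adjusted p = 0.0503). The 2 that fell were Mef2a (-0.3, adjusted p = 0.0269, edgeR) and Gata6, another GATA factor gene (-0.34, adjusted p = 0.0305, edgeR). With all libraries Gata6 did not pass. It averaged 33.2 CPM in KO PAB and 40.5 CPM in KO SHAM, and 37.6 CPM in WT PAB and 38.8 CPM in WT SHAM. None of the 23 passed between KO and WT.

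Among load-responsive genes of cardiac muscle, 7 of 11 tested rose with PAB averaged over genotypes and none fell. The median log2 fold change was 1.02, against -0.02 over all tested genes, and 7 rose without the 3 sham libraries as well. Ankrd23, a titin-binding stretch sensor gene, had 3.51 (adjusted p = 0.00335, edgeR), Acta1, the skeletal alpha-actin gene, 2.70 (adjusted p = 0.00176), and Ankrd1 1.26 (adjusted p = 0.00176). The averaged log2 fold change of Nppa, 5.46, was above all 11 of these, and that of Npr3, 1.24, was close to that of Ankrd1. In KO, 4 of the 11 rose (Acta1, Ankrd1, Ankrd23 and Xirp2), and in WT none did.

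The genes described here from around Nppa and Nppb on chromosome 5 did not pass the test. Nppa and Nppb are adjacent in the RefSeq gene order, with Clcn6 next to Nppa, and Plod1, Mfn2 and Miip on the side of Nppb. The gene directly next to Nppb in that order, 2510039O18Rikl, was not among those described. None of the 8 tested genes of this neighbourhood described here passed in any comparison, and 1 (Mfn2) had an unadjusted p below 0.05 in the averaged one. Their averaged log2 fold changes with PAB were -0.22 to 0.25, with a median of -0.01. Clcn6 stood at -0.08 (SE 0.09, adjusted p = 0.655) and Plod1 at 0.05 (SE 0.10, adjusted p = 0.816).

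**Figure D5:**
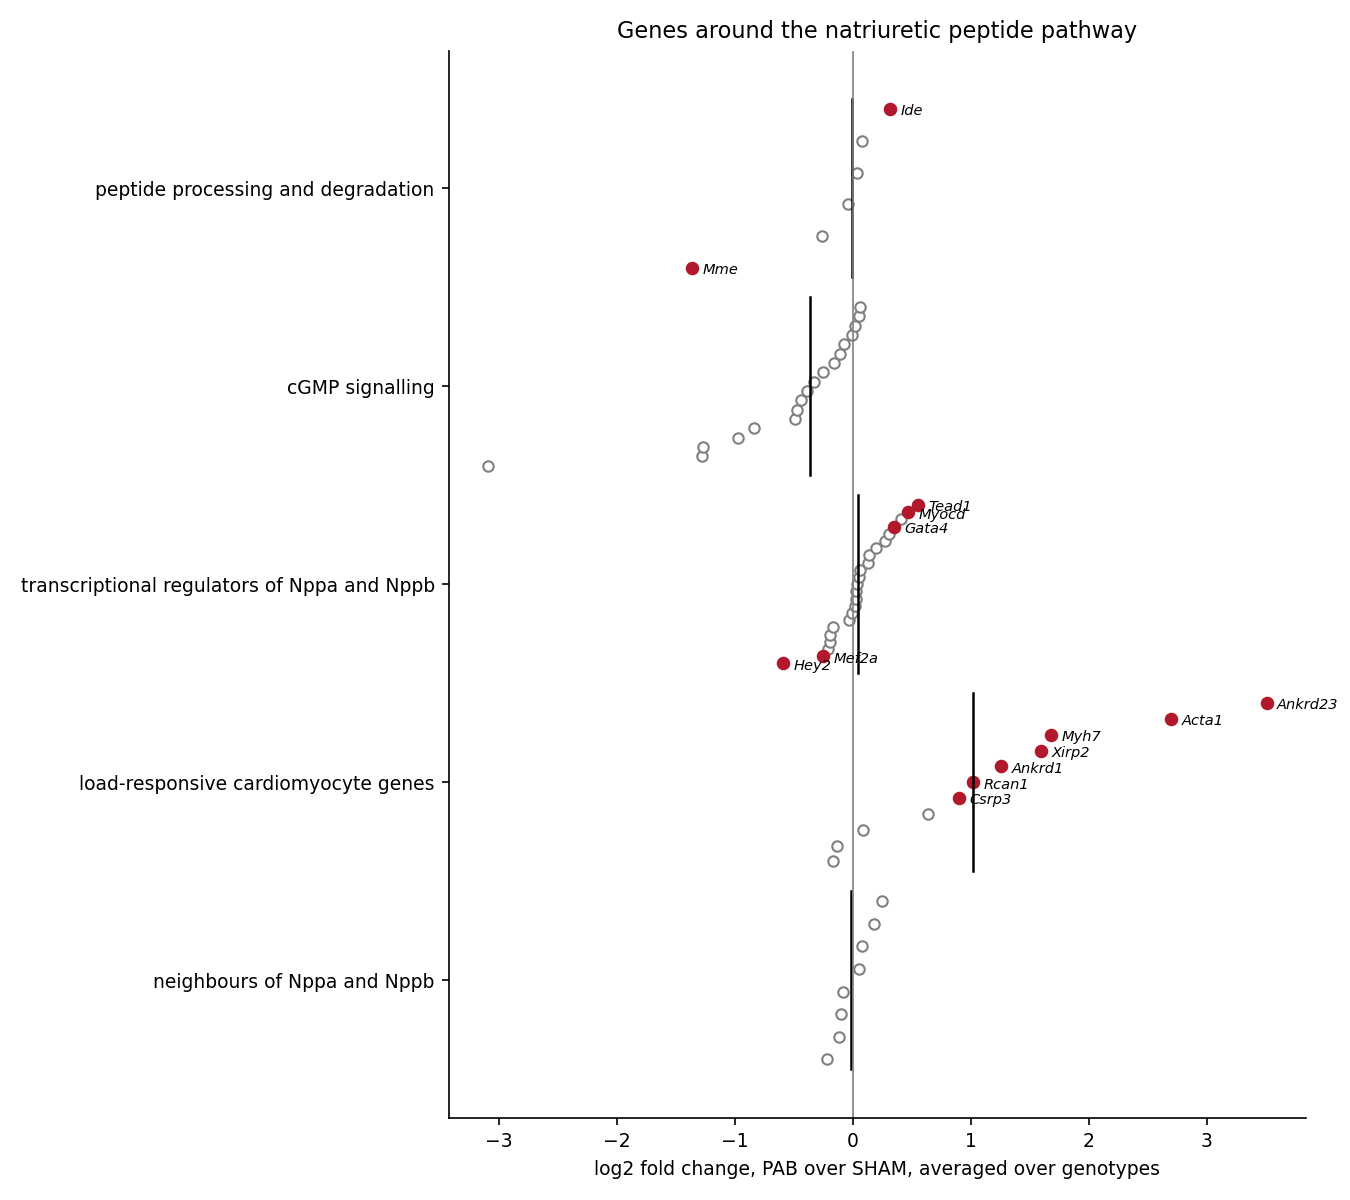
Averaged log2 fold change for PAB over SHAM of each tested gene in 5 lists around the natriuretic peptide system, with the median of each list as a vertical bar. Filled and named points passed the adjusted threshold of 0.05, and 7 of them are load-responsive cardiac muscle genes.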

How the data were processed

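The deposited values are expected counts, 1 whole number per gene symbol and library, for 16 libraries; the authors used STAR 2.5.3a, RSEM 1.3.0 and Rnor_6.0, per the submitters' processing notes. The annotation, strand setting and rounding are not given in the sources used here. As the values were already whole, they entered the tests unchanged.

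Genes were filtered with filterByExpr (minimum count 10), scaled by TMM and tested with edgeR 4.0.16 in R 4.3.3 (quasi-likelihood, robust, 4 group means, 12 residual degrees of freedom), with Benjamini-Hochberg adjustment per comparison over 13458 genes and calls below 0.05. SEs are the log2 fold change over the square root of F. CPM were computed from the counts and the TMM totals. Correlations used log2(CPM + 1) and exact permutation tests.

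The members and gene lists were chosen with earlier results of these data known. Named genes are the members, Esr1, list genes past the test or the 4 with the smallest p, and the 3 genes most correlated with each member. Of the lists, Prkg1 and Mrtfb were not matched, and older symbols were used for others. Results for some single genes of the lists are left out here. Alternative settings were DESeq2 1.42.0, limma-voom 3.58.1, RLE scaling, no filter, a filter of 1 CPM in 4 libraries, a replicate block, a fit to the compared groups alone, a test against a fold of 1.5 and leaving out each library. Leaving out 3 sham libraries and an adipocyte and mesothelial covariate were added after the data were seen. The scripts were tested on simulated data.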

Additional observations from a re-analysis of the deposited data

Results flagged for a closer look

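In 28 groups of 4 libraries, 1 for each of the 7 genes in each group, the highest and lowest values were compared with the rest by Dixon's criterion, which chance alone meets in about 1 in 20 groups. 3 values met it. Nppa in WT PAB 1 was 462 CPM, with the next WT PAB library at 85.0 CPM. Nppa in KO SHAM 1 was 1.46 CPM, with the next KO SHAM library at 6.75 CPM. Npr2 in WT SHAM 2, a sham library rich in adipocyte and mesothelial transcripts, was 34.4 CPM, with the next WT SHAM library at 27 CPM.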

How the results depend on the processing

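With PAB averaged over genotypes, 3 members passed; 1 passed at a minimum fold of 1.5 (Nppa, among 23 genes of 13458), and 2 to 3 when a library was left out. In WT 0 passed, and 1 (Nppa, among 108 genes) with DESeq2. In KO 2 passed, 1 at a minimum fold of 1.5 (among 2 genes), and 0 to 2 when a library was left out. Replicate numbers gave no pairing of samples (7 of 24 same-numbered pairs had a correlation above 0.1, range -0.62 to 0.56, and 3 of 16 libraries matched their own number best). With the replicate block 0 members and 0 genes passed in KO (adjusted p 0.0791 for Nppa and 0.0904 for Npr3), and Nppb missed in the averaged comparison (adjusted p = 0.0559). Nppb also missed there with no filter on low counts (0.057) and at the minimum fold (0.406). Nppa passed there in all 25 alternatives (log2 fold change 4.71 to 5.70).

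When a library was left out, the correlation of Nppa over PAB libraries ranged from 0.84 to 0.92 with Nppb, -0.964 to -0.435 with Npr2, 0.677 to 0.889 with Npr3 and -0.359 to 0.53 with Corin. No fold change that changed sign passed the test under any setting. Without the 3 sham libraries and with the covariate, Npr1 was 0.08 and 0.08 in the averaged comparison, 0.13 and 0.11 in WT, 0.031 and 0.05 in KO, 0.04 and 0.0065 for KO over WT in SHAM, and -0.10 and -0.06 in the interaction. Npr2 was 0.031 and 0.045 averaged, 0.07 and 0.09 in WT, and 0.0057 and 0.018 for KO over WT in SHAM. In SHAM, KO over WT was 0.15 for Nppb with the replicate block, and for Corin 0.0021 with RLE, 0.002 with DESeq2, 0.014 with limma-voom, 0.0012 with no filter, 0.015 with the replicate block and 0.027 with the covariate. The Npr1 interaction was -0.012 with limma-voom and -0.013 with the replicate block.

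Leaving out 1 library gave ranges across 0. For Npr1 they were -0.07 to 0.08 averaged, -0.12 to 0.18 in WT, -0.09 to 0.037 in KO, -0.15 to 0.0015 for KO over WT in PAB, -0.15 to 0.14 in SHAM and -0.19 to 0.10 in the interaction. For Npr2 they were -0.09 to 0.06 in WT, -0.12 to 0.06 for KO over WT in SHAM and -0.14 to 0.039 in the interaction. For Corin they were -0.11 to 0.23 for KO over WT in PAB, -0.11 to 0.18 in SHAM and -0.13 to 0.23 in the interaction. For Nppb they were -0.97 to 0.76 for KO over WT in SHAM and -0.27 to 1.46 in the interaction. The cause of these changes was not tested. Among the members, depth kept only Nppc from being tested.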
